A study of Mus musculus with 3 samples.

Results

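Type III and type IV intermediate filament genes were described across a doxycycline time course of melan-a NRAS61K cells. The 10 genes were Vim, Des, Gfap and Prph of type III, and Nefl, Nefm, Nefh, Ina, Synm and Nes of type IV, out of 18194 genes on the array. They were chosen by family, with earlier results for Nefl and Nes in these data known, so their differences are descriptions. Every probe set whose only gene symbol was one of the 10 was taken, which gave 24 of 45101. Melan-a is a line of immortalized mouse melanocytes, and these cells carry the NRAS61K oncogene, whose driving promoter the labels do not name. All arrays came from cells under doxycycline at 1 µg/ml, for 6, 14 or 28 days, with 1 array each of total RNA. GEO's series text speaks of 4 samples. The 3 with doxycycline are described, and an array without it was not used here. With 1 array per time point, no test between time points was possible, and each difference compares 2 arrays.

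Intermediate filaments are rope-like polymers of coiled-coil proteins that give cells mechanical strength and hold organelles in place. Type III proteins can polymerize alone, and vimentin is the usual one of mesenchymal and neural crest derived cells, pigment cells included. Type IV proteins are mostly neuronal: the neurofilament light, medium and heavy chains and alpha-internexin build axonal filaments, while nestin and synemin need partners such as vimentin or desmin. In rodent cells the light chain forms long filaments together with the medium or heavy chain, alpha-internexin or vimentin.

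The deposited values are log2 values with an unknown constant added, so only differences between arrays were read. The base of 2 was inferred and every fold assumes it. The background, set at the 90th percentile over 60 genes taken as silent in pigment cells (92 probe sets), was 22.75, 22.62 and 22.74 on the arrays in order of time. The first step below is day 14 minus day 6, the second step day 28 minus day 14, and the whole span day 28 minus day 6. A gene was described in a comparison if its brightest probe set by mean exceeded the background on 1 or both arrays. The columns had been quantile normalized, so each difference is relative to the other genes. The SD of log2 differences between probe sets of one gene was 0.35 in the first step, 0.28 in the second step and 0.37 over the whole span. It measures probe disagreement and not the spread between cultures. The 3' minus 5' difference of the Actb quality probe sets was 0.58, 0.76 and 0.75 in order of time, and the part of RNA quality in the results was not tested. Of 19 melanocyte markers on the array, 15 lay above the background on 1 or more arrays, among them Dct, Mlana and Mitf. The defining markers Tyr and Kit lay below it on every array, as did Rab27a and Trpm1. Nras itself differed by -0.23 over the whole span, and whether its probe set detects the introduced gene is not known here.

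Promoter sequences are shown for the 3 genes above the background that the RefSeq table (GRCm38.p6) holds: Vim, whose values were nearly level, Nes, which was lower late, and Ina, which was highest at day 14. Of the 10 genes 7 were matched, and Nefl, Nefm and Nefh were not. Each stretch is the 250 bases before the annotated gene start, 5′ to 3′ on the plus strand. Capitals mark exact matches on either strand to TATAAA, the core of a TATA box, or GGGCGG, the core of a GC box. The windows are chr2:13574061-13574310 for Vim, chr3:87970843-87971092 for Nes and chr19:47014431-47014680 for Ina.
Vim: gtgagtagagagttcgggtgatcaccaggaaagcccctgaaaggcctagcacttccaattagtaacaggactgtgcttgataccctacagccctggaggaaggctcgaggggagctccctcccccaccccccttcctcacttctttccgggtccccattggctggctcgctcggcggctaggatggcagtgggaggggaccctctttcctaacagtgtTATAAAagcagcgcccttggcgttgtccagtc
Nes: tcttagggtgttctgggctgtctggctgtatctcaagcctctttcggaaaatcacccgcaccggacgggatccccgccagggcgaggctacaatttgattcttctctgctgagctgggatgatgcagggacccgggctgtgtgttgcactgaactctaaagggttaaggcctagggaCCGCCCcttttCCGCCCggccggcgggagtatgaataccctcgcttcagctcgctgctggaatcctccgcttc
Ina: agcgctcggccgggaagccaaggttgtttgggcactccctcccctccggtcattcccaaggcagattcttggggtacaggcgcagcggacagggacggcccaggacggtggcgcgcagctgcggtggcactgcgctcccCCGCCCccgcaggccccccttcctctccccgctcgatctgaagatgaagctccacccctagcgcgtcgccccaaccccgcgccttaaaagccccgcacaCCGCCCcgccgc
The Vim window held TATAAA, whose first base lay 32 bases before the gene start, and no GGGCGG. The Nes window held 2 matches to GGGCGG, with first bases 73 and 62 bases before the start, and no TATAAA. The Ina window also held 2 matches to GGGCGG, at 111 and 12 bases. Of 32817 windows of this length in the table, 12.4% held TATAAA and 32.7% held GGGCGG. An E-box, CANNTG, was matched once in the Ina window, 135 bases before the start, and not in those of Vim and Nes, against 66.2% of all windows. The AP-1 motif TGANTCA was matched in none of the 3 windows and in 6.75% of all windows. No matches overlapped each other, and a match is a description of letters only.

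Of the 4 type III genes, vimentin was the one above the background. Its main probe set read 30.18 on day 6, 30.25 on day 14 and 30.15 on day 28. It ranked 23rd, 18th and 28th from the top of all 45101 probe sets. That main probe set is of a class that can hybridize to other transcripts (suffix _x_). The other probe sets of Vim, which are not of that class, read 30.17, 30.25 and 30.08, and 29.90, 30.08 and 29.83. The largest difference of any Vim probe set between 2 arrays was -0.25, in the second step, below the SD of 0.28 between probe sets of a gene. Over the whole span the difference of Vim was -0.03 as deposited. It was 0.42 after scaling to equal reference genes, which moved every gene alike, by 0.45. That scaling sets the median level of 11 reference genes equal on the arrays, while the median of those genes' own differences was -0.07 over the whole span. The highest value of any probe set was 30.59, so Vim lay near the top of the scale, which left little room for a rise. Its small differences therefore do not show that its level was constant.

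Desmin, the filament protein of muscle, lay below the background on all arrays, at 22.19, 22.11 and 22.47 on its main probe set. Its other probe set read 21.64, 21.02 and 21.15. Glial fibrillary acidic protein, Gfap, which marks astrocytes and some Schwann cells, also lay below it on all 3 probe sets. The main one read 21.43, 22.00 and 21.95. The other probe sets of Gfap read 18.70, 20.85 and 19.72, and 18.56, 20.29 and 20.30. All 3 were thus lowest at day 6, but values below the background carry no level, and no fold is given.
Peripherin, Prph, the type III protein of peripheral neurons, had 4 probe sets below the background. The closest to it read 22.31, 21.93 and 22.55, with 22.55 at day 28 lying 0.18 under the background. This probe set and another of Prph are of a class that can hybridize to other transcripts (suffix _x_). In the first step the 4 probe sets differed by -0.38, 0.42, 0.29 and 1.13, so they did not share a direction.

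**Figure D1:**
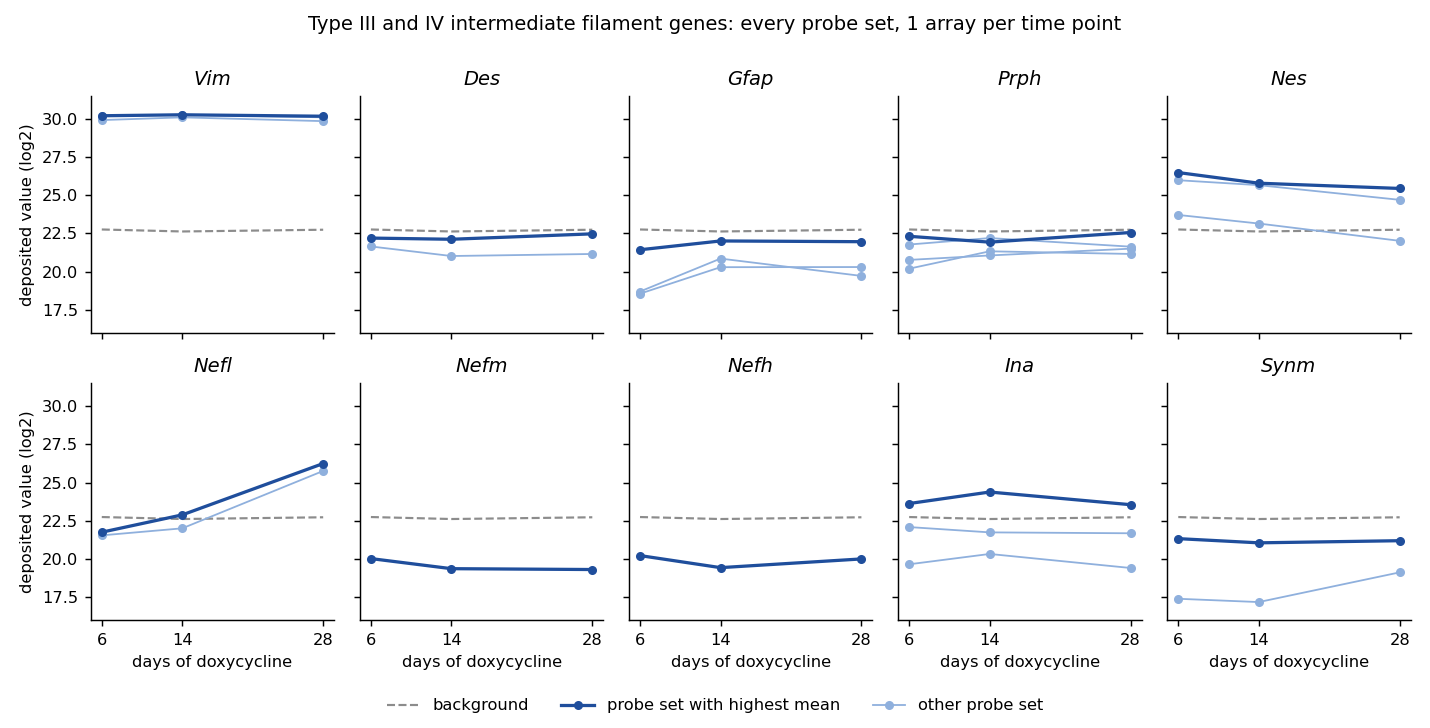
Deposited log2 value (vertical axis) of every probe set of the 10 genes against days of doxycycline (horizontal axis), 1 array per time point; dark lines are the probe set with the highest mean, light lines the others, and dashed lines the background of each array. Vim sits between 29.83 and 30.25 throughout, and Nes is lower on each later array. Nefl is near or below the background until day 14 and well above it at day 28, and 6 genes stay below the background.

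Nestin, Nes, the type IV protein of neural and muscle progenitors that copolymerizes with vimentin, was lower at each later time point. Its main probe set read 26.47 on day 6, 25.78 on day 14 and 25.43 on day 28. The other probe sets read 25.97, 25.65 and 24.69, and 23.70, 23.14 and 22.01. The last of these lay below the background at day 28. All 3 probe sets thus had the same order of arrays, with day 6 highest and day 28 lowest. Day 28 was 2.05-fold lower than day 6 on the main probe set, a log2 difference of -1.04, and 2.43-fold lower on the next. The dimmest gave at least 1.95-fold. These differences were 2.78 to 4.53 times the SD between probe sets of a gene.

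The probe sets of Nes disagreed on when most of the difference arose. The main one gave -0.69 in the first step and -0.34 in the second step. The other probe sets gave -0.32 and -0.96, and -0.56 and -1.13. The mean of the 3 gave -0.81 in the second step. After scaling to equal reference genes the difference over the whole span was -0.59, under 2-fold. That scaling moved every gene alike, by 0.45, so it left the place of Nes among the genes as it was.

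The neurofilament light chain gene Nefl was near or below the background until day 14 and well above it at day 28. Its main probe set read 21.76 on day 6, 22.89 on day 14 and 26.25 on day 28. The other probe set read 21.55, 22.02 and 25.76, and it was above the background at day 28 alone. Day 28 thus stood apart from both earlier arrays on both probe sets. Against day 14, the difference was 3.35 on the main probe set, a 10.2-fold higher level, with the day 14 value 0.27 above the background. The other probe set gave 3.75 as measured and at least 8.82-fold against the background. Against day 6, day 28 was at least 11.3-fold higher on the main probe set and at least 8.07-fold on the other, and the measured differences were 4.49 and 4.21. The differences in the second step were 12.1 and 13.5 times the SD between probe sets of a gene.

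Up to day 14 the signal of Nefl was close to the background. In the first step the measured difference was 1.13 on the main probe set, but only day 14 lay above the background, and against the background the bound was 1.10-fold. The other probe set gave 0.46 with both values below the background.

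The other neurofilament chains gave no signal above the background at any time. Nefm, the medium chain gene, read 20.04, 19.38 and 19.32, below the background at every time. Nefh, the heavy chain gene, read 20.23, 19.45 and 20.02, again below it. Each has 1 probe set on the array, so there is no second reading of either gene.

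Alpha-internexin, Ina, was above the background on all arrays on its main probe set, at 23.63, 24.39 and 23.56. It was highest at day 14, 1.68-fold above day 6 and 1.77-fold above day 28, while days 6 and 28 differed by -0.08, or by 0.37 after scaling to equal reference genes. The differences of 0.75 and -0.83 were 2.17 and 2.99 times the SD between probe sets of a gene. The other probe sets of Ina lay below the background. One read 19.67, 20.34 and 19.42, with the same order of arrays, and the other 22.10, 21.75 and 21.69, which was not highest at day 14. Both steps share the day 14 array. Synemin, Synm, which links filaments to adhesion sites, lay below the background at 21.34, 21.07 and 21.21. Its other probe set read 17.41, 17.20 and 19.14, the highest at day 28 and far below the background.

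**Figure D2:**
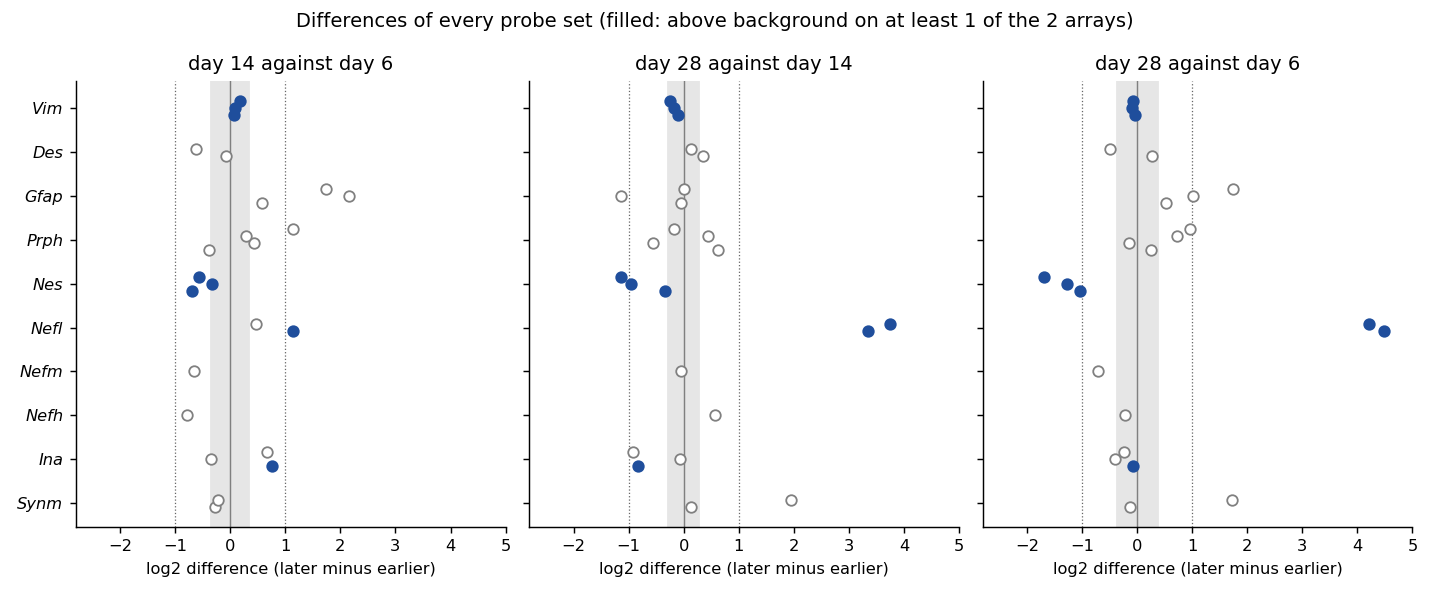
Log2 difference (horizontal axis, later minus earlier array) of each probe set of the 10 genes in the 3 comparisons; filled points exceeded the background on 1 or both arrays, open points on neither, the grey band is 1 SD between probe sets of a gene, and dotted lines mark 2-fold. The 2 probe sets of Nefl lie beyond 3 in the second and last panels, the 3 of Nes lie below -1 in the last, and those of Vim stay inside the band.

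In all, 4 of the 10 genes, Vim, Nes, Nefl and Ina, were above the background on at least 1 array, and the other 6 genes with their 13 probe sets were not. Genes enter through the array where they are high, so counts over these 4 lean towards differences. In the first step, 1 of the 10 was 2-fold higher (Nefl) and 0 lower, where 5.47% of 11776 genes were higher and 3.91% lower. The second step had 1 higher (Nefl) and 0 lower, against 2.23% and 1.44% of 11771 genes. Over the whole span, 1 was higher (Nefl) and 1 lower (Nes), against 6.61% and 4.03% of 11758 genes. Those shares are over genes described. With no filter on low values the counts of the 10 stayed as given, beside 6.26%, 4.13% and 7.17% of 18194 genes higher and 5.41%, 3.22% and 5.17% lower, and a count of 1 in 10 is too small to read against them. At 3-fold, 1 of the 10 was higher (Nefl) in the second step, against 0.773% of genes, and 1 over the whole span (Nefl), against 2.63%, with 0 in the first step (2.13%). At 3-fold, 0 were lower in the 3 comparisons, against 0.510%, 0.399% and 0.757% of genes. At 1.5-fold, 2 were higher (Nefl and Ina) and 1 lower (Nes) in the first step, against 13.4% and 14.3%. In the second step 1 was higher (Nefl) and 1 lower (Ina) at 1.5-fold, against 7.67% and 4.38%, and over the whole span 1 higher (Nefl) and 1 lower (Nes), against 15.8% and 12.2%. The median log2 difference over the 4 genes was 0.41, -0.22 and -0.05 in order of the comparisons (the last turned positive with equal reference genes), against -0.03, 0.04 and 0.01 over all genes described. Nearest to the 2-fold line were Nes over the whole span (-1.04) and Nefl in the first step (1.13) on the outer side, and Ina in the second step (-0.83) and in the first step (0.75) on the inner side.

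The balance of all genes moved with the scaling. As deposited, 777 genes were 2-fold higher and 474 lower over the whole span. With equal hybridization controls the counts were 681 and 571, and with equal reference genes 2007 and 138. In the first step the counts were 644 and 461 as deposited, 554 and 627 with equal hybridization controls and 1083 and 191 with equal reference genes. In the second step they were 263 and 170 as deposited and 458 and 104 with equal reference genes. Nefl and Nes kept their directions in all comparisons under both scalings.

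Nefl held the 7th highest measured difference of 11771 genes in the second step, where both of its values were above the background. Over the 2 steps, each gene was placed by its difference in the first and in the second step, and the 5 genes nearest to Nefl in Euclidean distance were taken from 11960. The steps are as measured, and Nefl and all 5 genes lay below the background on day 6, so the order of the distances rests in part on values that carry no level. With values raised to the background the first step of Nefl was 0.14. The nearest was Prkcb, a protein kinase C gene, at a distance of 0.46, with values of 21.81, 23.28 and 26.95. Kcnh1, a voltage-gated potassium channel gene, followed at 0.69 with 20.69, 22.45 and 25.51. Fam167a, the sulfotransferase gene Chst8 and the class I histocompatibility gene H2-Q5 lay at 1.02 each. These 3, like Kcnh1, were above the background at day 28 alone. A second probe set of Kcnh1 and one of Prkcb went the same way (2.50 and 2.82, and 1.29 and 3.35, for the 2 steps). Another of Prkcb, at 19.27 to 20.09, lay below the background, and so did a second probe set of H2-Q5, with steps of 1.73 and -0.16. A distance over 3 arrays holds 2 numbers per gene and describes these arrays only.

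**Figure D3:**
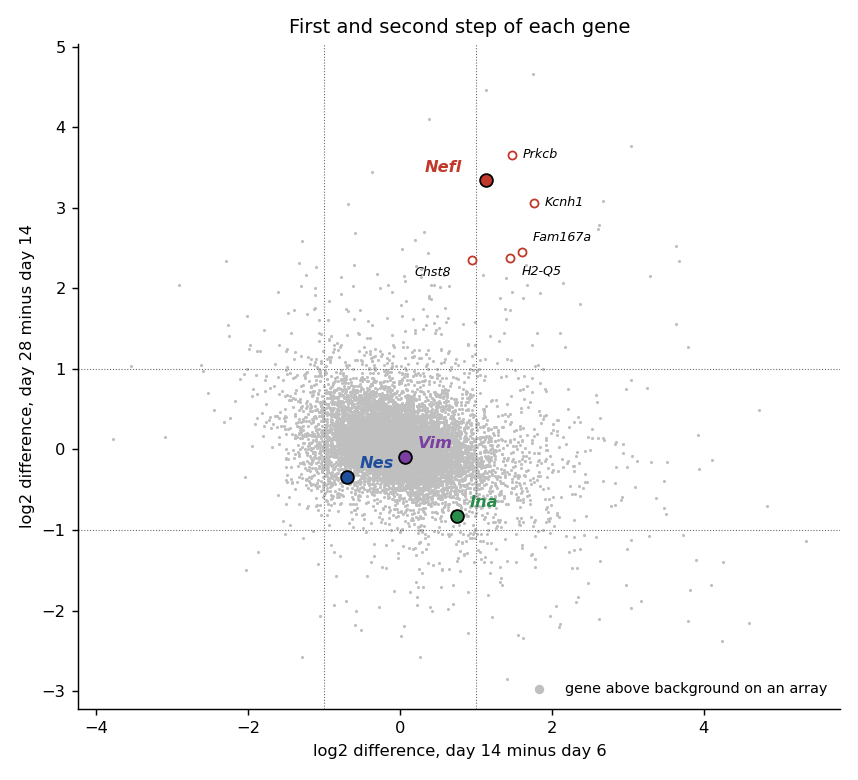
Each grey point is a gene above the background on 1 or more arrays, placed by its log2 difference for day 14 minus day 6 (horizontal) and day 28 minus day 14 (vertical); large points are the 4 detected intermediate filament genes, open circles the 5 genes nearest to Nefl, and dotted lines mark 2-fold. Nefl lies at 1.13 and 3.35, far above the cloud that holds Vim, while Nes and Ina lie inside the 2-fold lines. Both axes share the day 14 array.

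The genes next to Nefl on chromosome 14 were looked at after its values were seen. Nefm is the next protein-coding gene on one side and Dock5, an exchange factor gene for Rac, on the other. Dock5 read 23.87, 22.90 and 22.65, the last below the background. Kctd9, further along and above the background on all arrays, read 25.08, 23.76 and 24.01, lower at day 28 than at day 6 by a difference of -1.07. Adam7 and Adamdec1, beyond Nefm, lay below the background on all arrays, and Gnrh1 had no named probe set. On chromosome 3, Bcan, the brevican gene next to Nes, read 21.70, 23.62 and 23.50 and so stood higher at day 14 and day 28 than at day 6, opposite to Nes. Gpatch4, further along, read 25.77, 24.50 and 24.68, lower at day 28 than at day 6 by -1.09, as Nes was. On the other side of Nes, Isg20l2 differed by -0.52 and Rrnad1 by 0.45 over the whole span. Crabp2 and Hapln2 lay below the background on all arrays, so the neighbours shared no direction.

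Other intermediate filament types were mostly below the background, and none of those described was 2-fold apart. The 5 described are too few to read against the shares of all genes given above. Of 15 such genes on the array, 10 lay below the background on all arrays, among them the simple epithelial keratins Krt7, Krt8, Krt18 and Krt19. The keratin gene Krt5 was above the background on all arrays, at 23.54, 23.57 and 23.70. Of the nuclear lamins, Lmnb1 read 27.03, 26.56 and 26.13, and Lmnb2 24.32, 23.61 and 23.43. Both were 1.86-fold lower at day 28 than at day 6. Lmna, the A-type lamin gene, read 28.12, 27.27 and 27.54, lowest at day 14. Sync, for syncoilin, which binds desmin and peripherin, read 23.16, 23.10 and 23.10.

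Of 23 genes on the array whose proteins link, fold or remove intermediate filaments, 19 were described. In the first step 0 of them were 2-fold apart, beside 5.47% of all genes higher and 3.91% lower. The second step had 1 higher and 1 lower, beside 2.23% and 1.44% of all genes, and over the whole span, 1 was higher and 0 lower, beside 6.61% and 4.03%. Plectin, Plec, the main cross-linker of vimentin, read 28.70, 28.68 and 28.66. The plakin gene Ppl, for periplakin, which binds vimentin and keratins, read 23.94, 24.51 and 25.30, 2.57-fold higher at day 28 than at day 6. The small heat shock protein gene Cryab, whose product binds desmin and Gfap filaments, read 28.20, 28.53 and 27.43, 2.13-fold lower at day 28 than at day 14. Hspb8, for another small heat shock protein, was under the background at day 14, with day 28 higher by no less than 1.47-fold. The kinesin gene Kif5a, whose neuronal motor carries neurofilaments, lay below the background, and Kif5c read 23.61, 23.41 and 24.17. Myo5a, for the myosin that binds the light chain and also moves melanosomes, read 26.47, 27.22 and 27.23.

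Among kinases, phosphatases and other regulators that act on intermediate filaments, the mitotic kinases were lower and Prkca was higher. All 18 on the array were above the background on at least 1 array. The first step had 1 gene 2-fold higher and 3 lower, beside 5.47% and 3.91% of all genes. The second step had 0 in either direction, beside 2.23% and 1.44%. Over the whole span, 1 of 17 described was higher and 4 lower, beside 6.61% and 4.03%. Plk1, Aurka, Aurkb and Cdk1, whose kinases act on vimentin or nestin in mitosis, were 3.49-fold, 3.06-fold, 2.56-fold and 2.25-fold lower at day 28 than at day 6. Prkca, a protein kinase C gene, read 25.19, 27.14 and 26.29, 3.87-fold higher at day 14 than at day 6. Cdk5, the neuronal kinase of nestin and the neurofilament tails, read 26.41, 26.83 and 27.00, and its activator gene Cdk5r1 23.15, 22.98 and 23.22.

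Transcription factors known at intermediate filament promoters included 27 described genes of 32 on the array. Of these, 5 were 2-fold higher and 1 lower in the first step, beside 5.47% and 3.91% of all genes. The second step had 1 higher and 0 lower, beside 2.23% and 1.44%. Over the whole span, 4 were higher and 0 lower, beside 6.61% and 4.03%. The median over the whole span was 0.41, against 0.01 over all genes. Rest, a repressor of neuronal genes, read 26.36, 26.53 and 26.24, and Sp1, a GC box factor, 27.24, 27.08 and 27.15. The homeobox gene Isl1, active in sensory and motor neurons, read 23.79, 24.90 and 25.40, 3.06-fold higher at day 28 than at day 6. Mef2c read 23.16, 24.99 and 24.71, 2.94-fold higher in the same comparison, and Sox9 was 2.28-fold higher. Nfix, of the nuclear factor I family, was under the background at day 6, with day 14 higher by no less than 3.11-fold. Of the AP-1 genes, Fosl1 read 26.27, 24.39 and 25.62, lowest at day 14, and Fos 25.54, 26.87 and 26.24, highest then. The neuronal factors Pou3f2, Pou4f1 and Neurod1 lay below the background on all arrays. Isl1 and Sox9 (23.82, 24.07 and 25.01) were highest at day 28. So were Jun, Junb, Sp3, Stat3, Sox10, Mef2a, Mef2d, Zeb1 and Smad3, some by little (Sp3 by 0.01 over day 14). Mef2c, Nfix and Fos were highest at day 14. The same held for Rest, Nfia, Sox2, Sox11, Zeb2, Tcf4 and Hif1a, some by little (Hif1a by 0.01 over day 6). Sp1, Fosl1, Fosl2, Nfib, Srf and Snai2 were highest at day 6. Isl1 differed by 1.11 in the first step and 0.51 in the second step, where Nefl differed by 3.35. The part of these factors in the Nefl values was not tested.

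Cell type markers were set beside the filament genes. For the marker counts here and below, the shares of all genes 2-fold higher and lower were 5.47% and 3.91% in the first step. They were 2.23% and 1.44% in the second step, and 6.61% and 4.03% over the whole span. Of 29 neuronal markers on the array, 16 lay below the background on every array, including Snap25, Syn1, Rbfox3, Stmn2, Gap43, Dcx and Th. The median value of the whole list was 22.07, 22.44 and 22.37 in order of time. Over the whole span, 3 of the 13 described were 2-fold higher (Scg2, Mapt and Ncam1) and 1 lower (Tubb3), with a median of 0.11. In the second step, where Nefl differed most, 1 was higher and 0 lower. That gene was Scg2, for a secretory granule protein, which read 21.49, 22.86 and 24.31. Tubb3, for a neuronal tubulin, read 27.07, 25.91 and 25.59, and Mapt, for tau, 24.22, 26.46 and 26.00. For the undetected markers Snap25, Syn1 and Rbfox3, the highest value on any array was 21.35. Other neuronal genes of the list were above the background on all arrays. Among them, Map2 read 25.76, 26.58 and 26.55, and Syt1 23.38, 23.04 and 23.66.

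Some astrocyte and Schwann or glial markers stood higher at day 28 than at day 6, while Gfap stayed below the background. Of 10 astrocyte markers described, 4 were 2-fold higher and 0 lower over the whole span, with S100b 4.38-fold higher and Aqp4 at least 1.25-fold. The lists share genes, so their counts are not independent. S100b is also in the Schwann and glial list, Sox9 is in the astrocyte and the crest lists, and Ncam1 is in the neuronal and the Schwann lists. The astrocyte genes Aldh1l1, Slc1a2, Slc1a3 and Gjb6 lay below the background on all arrays. Of 13 Schwann and glial markers described, 6 were 2-fold higher over the whole span, led by Lgi4 at no less than 11.1-fold. The 1 lower was Mbp, at 23.93, 23.30 and 22.43, with day 28 at least 2.29-fold lower than day 6. Ngfr, Mag, Gap43 and Artn of this list lay below the background on all arrays. Between days 14 and 28 the astrocyte list had 0 higher and 1 lower, and the Schwann and glial list the same counts. Of the 16 neural crest and progenitor markers described, a list that fits cells in which nestin is usual, 2 were higher and 0 lower over the whole span, with Id4 9.14-fold and Sox9 2.28-fold higher. Sox2, another progenitor gene, read 22.88, 23.64 and 23.09. The list median was 0.59, while Nes differed by -1.04.

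Muscle markers were mostly low for the skeletal and cardiac kind, where desmin is the main filament. Of 25 on the array, 18 lay below the background on every array, including Myod1, Myog and Myf5. Also, 10 of the 25 belong to the silent genes that set the background, so those were bound to lie mostly below it. Actc1 (25.09, 24.48 and 24.34) and Tnnt2 (24.10, 22.82 and 23.36) were above the background on all arrays, as were Mb and Tnni2. Tnnt3, a troponin gene and one of those 10, was above the background at day 28 alone, as was true of one Nefl probe set, with values of 21.28, 20.92 and 24.36. Of 9 smooth muscle markers described, 4 were 2-fold lower and 0 higher over the whole span, with Actg2 5.91-fold, Tagln 4.51-fold, Acta2 2.04-fold and Tpm1 2.02-fold lower. Mesenchymal and fibroblast markers, which share vimentin, had 4 of 17 higher and 0 lower, led by Postn at 9.11-fold and Col6a1 at 8.33-fold or more, with a median of 0.04 that turned to -0.03 with equal hybridization controls.

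Markers of other cells that the dish could hold were in part below the background. Of 12 endothelial markers 10 were, among them Pecam1 and Kdr, as were 8 of 13 keratinocyte markers and 6 of 13 leukocyte markers, among them Ptprc. Over the whole span, 2 of 2 endothelial markers described were 2-fold higher (Cdh5, at 23.70, 25.85 and 27.93, and Egfl7), and 0 of 4 keratinocyte markers in either direction. Of 7 leukocyte markers, 2 were higher, Lyz2 at 6.70-fold and Cd52. Cd52 was barely above the background at day 28, and its bound was 1.02-fold. Melanocyte markers had 9 of 15 higher and 1 lower in the first step, 0 of 14 higher and 6 lower in the next, and 5 of 14 higher and 0 lower over the whole span. Tyrp1, at 27.58, 29.67 and 27.47, was highest at day 14 as Ina was. In a culture measured as a whole, more cells of a kind and more RNA per cell cannot be told apart. The part of each of these cell types in the Vim, Nes, Nefl and Ina values was not tested.

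**Figure D4:**
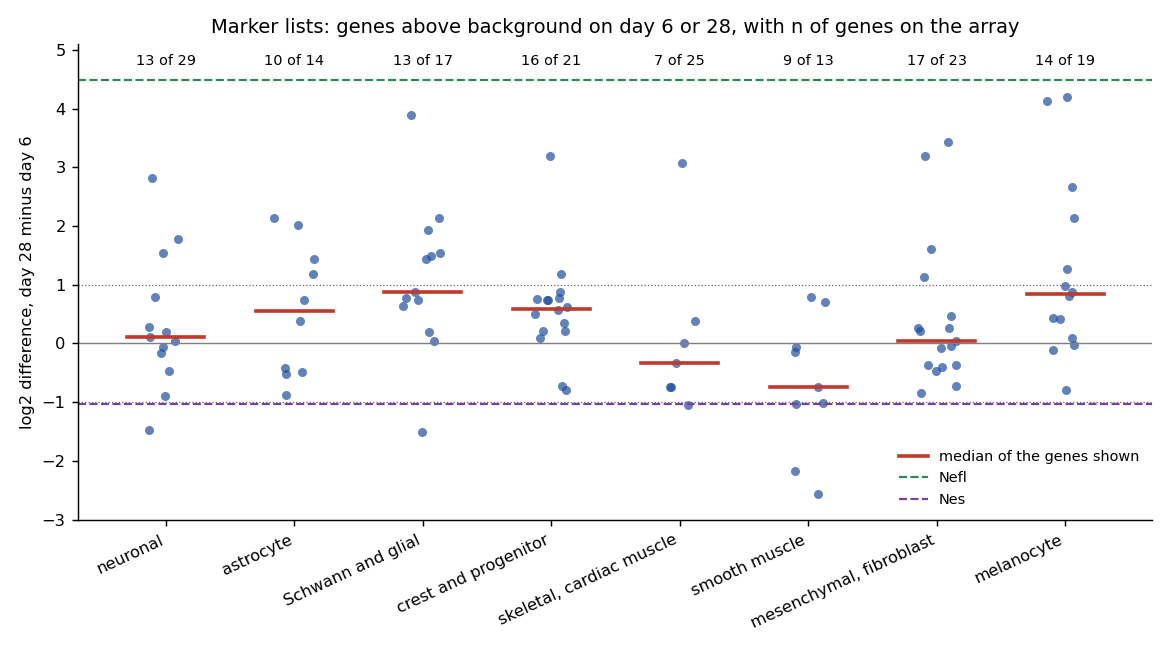
Log2 difference for day 28 minus day 6 (vertical axis) of each marker gene above the background on 1 of those arrays, by cell type list (horizontal axis); red bars are list medians, numbers give genes shown of genes on the array, dotted lines mark 2-fold, and dashed lines mark Nefl and Nes. The Nefl line, at 4.49, uses a day 6 value below the background, for which the bound is 11.3-fold, so it has no order against Dct (18.4-fold) and Mlana (17.5-fold). Nes, at -1.04, lies level with Acta2 and Tpm1 of the smooth muscle list.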

How the data were processed

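Total RNA was measured on 3 Affymetrix mouse arrays, and the labels do not say whether the time points came from separate cultures. The authors deposited 1 value per probe set and array, read here as log2. Values spanned 1.46 to 30.59, their median being 22.91, and the sorted columns of the 3 arrays were identical, as after quantile normalization. Summarization, software and log base are not given in the sources used here.

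Of 45101 probe sets, 34958 had a single gene symbol, 932 several and 9211 none. Checked against a GRCm38.p6 gene table, 0 symbols changed. The probe set brightest by mean stood for a gene. Where 1 of 2 arrays lay below the background, the fold is a bound against the background, while counts of genes 2-fold apart (a log2 difference of 1 or more) use measured values.

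Members and lists were chosen with earlier results of these data known. By the rule, all 10 members and the 5 genes nearest to the member with the largest difference were named. List genes could be named if among the 3 largest differences of a comparison or 2-fold apart. The examples were picked from those, and other list genes and the chromosome neighbours were named after their values were seen. Python 3.11.15, numpy 2.4.6 and pandas 2.3.3 were used, and the scripts' counting was tested on simulated data. Alternatives covered scaling, probe set choice, background, dim values, the filter and the size of difference. The planned comparison of the members' protein sequences was not run.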

Additional observations from a re-analysis of the deposited data

How the results depend on the processing

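Counts of the 10 genes were recomputed under 10 alternatives for each comparison and direction, and 51 of 60 counts stayed the same. In the first step, the 1 gene 2-fold higher (Nefl) became 0 with the mean of all probe sets, with the 95th percentile background, with values raised to the background and at 3-fold, and 2 at 1.5-fold (Nefl and Ina). The 0 genes lower became 1 at 1.5-fold (Nes). In the second step, the 0 genes lower became 1 at 1.5-fold (Ina). Over the whole span, the 1 gene lower (Nes) became 0 at 3-fold and 0 with equal reference genes. The count of Nefl as higher in the second step and over the whole span held in all 10 alternatives. Its differences ranged from 3.35 to 3.56 and from 3.50 to 4.93, and that of Nes over the whole span from -1.34 to -0.59. With the 75th percentile background, Des, Gfap and Prph were also described, and none was 2-fold apart. Of 57 list medians, 21 changed sign under a scaling, the largest in size at 0.33. The median of the 2 endothelial markers described in the first step (1.12) became -0.34 with the 75th percentile background and -0.15 with no filter, and over the whole span (2.63) it became -0.17 with the 75th percentile background, since more genes enter. With no filter on low values, genes 2-fold higher and lower over all genes numbered 1139 and 985 in the first step (644 and 461 as reported), 752 and 585 in the second step (263 and 170) and 1304 and 941 over the whole span (777 and 474). No paired analysis was possible because each group has 1 array. The number of arrays limits the precision, and Nefm, Nefh, Synm, Des, Gfap and Prph lie too near or below the background to show a difference.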
